A study of Mus musculus with 12 samples.

Results

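Endothelial cells of the mouse aorta labelled as lacking both Ets1 and Ets2 were compared with wild-type cells on 2 and 3 Affymetrix arrays, 5 of the 12 sample columns of the series. A gene was called when limma gave its brightest probe set (the one with the highest mean over the arrays) a Benjamini-Hochberg adjusted p under 0.05 over 11015 genes. It counted as changed only when its 2 brightest probe sets also differed in the same direction, so only the 4785 genes with 2 or more probe sets could be judged. Of these, 1061 changed (22.2%): 753 were higher (15.7%) and 308 lower (6.44%) in the arrays labelled double null, called DN-labelled arrays from here on. The 6230 genes with a single probe set are counted apart.

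All cells came from mice aged 4 weeks and were cultured in a serum-rich endothelial medium. Wild-type cells were Ets1+/+; Ets2+/+ and carried a lentivirus with egfp. Cells labelled double null were Ets1-/-; Ets2fl/fl and carried a lentivirus with egfp-Cre, so Cre and the floxed alleles differed between the groups along with the loss of Ets1 and Ets2, and their effects cannot be told apart here. The reference groups were Ets1 null (Ets1-/-; Ets2fl/fl, egfp virus, 3 arrays) and Ets2 null (Ets1+/+; Ets2fl/fl, egfp-Cre virus, 3 arrays). The labels name biological replicates without saying whether each came from its own animal, so p-values measure the spread between these samples. In such bulk RNA, fewer cells of a type and less RNA per cell cannot be told apart.

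Ets1 and Ets2 are closely related transcription factors that bind DNA through the ETS domain and act downstream of growth factor and Ras signalling; endothelial cells use them in vessel growth and survival. Many of the genes described below belong to oxygen sensing. There, prolyl hydroxylases (Egln1, Egln2, Egln3) mark the alpha subunits of the hypoxia-inducible factors (HIF) for destruction through Vhl while oxygen is present, and HIF otherwise raises glucose uptake, glycolysis, mitophagy and its own hydroxylases by binding a short core motif in target genes.

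Values below are log2 levels of a probe set minus the median of all probe sets on the same array (centred log2), and a level is compared only within a probe set. Before centring, the median was 8.3 and 8.29 in the DN-labelled arrays against 9.05 to 9.15 in the 9 others, and 2809 and 2887 probe sets read under 6.5 against 723 to 910. This gap cannot be told apart from the group. Ets1, the first gene to check, went against the label on its 2 brightest probe sets. On the brightest, the wild-type arrays read 1.21, 0.72 and 0.95, the Ets1 null arrays -0.82, -0.38 and 0.02, and the DN-labelled arrays 1.72 and 1.99. Those 2 arrays lay above every wild-type array. The difference was 0.90 ± 0.26 (SE, n = 2 and 3, limma adjusted p = 0.0275), the second probe set of Ets1 gave 0.78, the third gave -1.20, and against Ets1 null the brightest gave 2.26 (adjusted p = 0.000622). Ets1 with uncentred values gave 0.10 (adjusted p = 0.762), and the centred call was lost without wild-type array 2 or 3 (adjusted p = 0.0788 and 0.0519) or DN-labelled array 1 or 2 (adjusted p = 0.0569 and 0.142). Ets2 read 0.68, 0.89 and 1.59 in wild type and 2.72 and 1.34 in the DN-labelled arrays, which overlapped (0.98 ± 0.41, adjusted p = 0.104). In Ets2 null, Ets2 read 0.55, 0.29 and 1.05, which limma did not call lower than wild type (-0.42, adjusted p = 0.57). The DN-labelled arrays were called 1.40 above Ets2 null (adjusted p = 0.0301), again against the label, with 0.75 on the second probe set (adjusted p = 0.102). Where the probe sets lie relative to the deleted exons is not known here. Every direction below is therefore that of the DN-labelled arrays. Xist and the Y-linked Eif2s3y marked wild-type array 1 as male and the other 4 arrays compared as female. All Ets1 null arrays were marked as female and all Ets2 null arrays as male. Every difference of the DN-labelled arrays from Ets2 null is therefore also one between the sexes, and the 2 cannot be told apart.

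The promoters of 7 genes from oxygen sensing and glycolysis are printed here because these genes rose together and because HIF is known to bind the core ACGTG. Each is the RefSeq promoter window of 300 bases around the gene's start (GRCm38.p6), written 5′ to 3′ on the gene's strand, with every ACGTG, read on either strand (so also CACGT), in capitals. Egln3 and Egln1 are oxygen-sensing hydroxylases, Higd1a a mitochondrial protein of the respiratory chain, Ero1a an oxidase of the endoplasmic reticulum, Slc2a1 a glucose transporter, and Pgk1 and Tpi1 glycolytic enzymes.
Egln3 (chr12:54203825-54204124, minus strand): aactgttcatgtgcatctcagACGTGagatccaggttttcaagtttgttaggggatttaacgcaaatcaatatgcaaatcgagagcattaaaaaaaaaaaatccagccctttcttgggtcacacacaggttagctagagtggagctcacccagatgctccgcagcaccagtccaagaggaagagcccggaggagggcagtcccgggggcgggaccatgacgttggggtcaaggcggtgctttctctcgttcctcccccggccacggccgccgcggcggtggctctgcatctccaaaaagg
Egln1 (chr8:124949205-124949504, minus strand): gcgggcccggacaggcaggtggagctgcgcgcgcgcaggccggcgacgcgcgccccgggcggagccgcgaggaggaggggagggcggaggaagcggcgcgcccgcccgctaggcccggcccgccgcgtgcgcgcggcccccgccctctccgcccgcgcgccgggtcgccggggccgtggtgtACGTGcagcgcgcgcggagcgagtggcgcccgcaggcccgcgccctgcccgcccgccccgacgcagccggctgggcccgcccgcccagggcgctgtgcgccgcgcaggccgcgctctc
Higd1a (chr9:121857747-121858046, minus strand): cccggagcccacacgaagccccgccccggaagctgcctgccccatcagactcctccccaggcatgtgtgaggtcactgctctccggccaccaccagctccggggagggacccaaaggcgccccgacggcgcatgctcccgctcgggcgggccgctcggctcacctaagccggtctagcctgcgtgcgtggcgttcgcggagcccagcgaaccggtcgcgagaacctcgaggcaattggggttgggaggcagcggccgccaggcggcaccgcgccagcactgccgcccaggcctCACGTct
Ero1a (chr14:45318523-45318822, minus strand): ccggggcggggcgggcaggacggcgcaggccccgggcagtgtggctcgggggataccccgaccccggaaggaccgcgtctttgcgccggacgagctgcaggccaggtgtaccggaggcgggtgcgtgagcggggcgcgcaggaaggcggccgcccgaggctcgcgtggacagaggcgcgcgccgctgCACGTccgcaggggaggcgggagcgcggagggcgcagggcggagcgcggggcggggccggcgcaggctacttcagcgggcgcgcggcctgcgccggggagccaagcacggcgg
Slc2a1 (chr4:119108495-119108794, plus strand): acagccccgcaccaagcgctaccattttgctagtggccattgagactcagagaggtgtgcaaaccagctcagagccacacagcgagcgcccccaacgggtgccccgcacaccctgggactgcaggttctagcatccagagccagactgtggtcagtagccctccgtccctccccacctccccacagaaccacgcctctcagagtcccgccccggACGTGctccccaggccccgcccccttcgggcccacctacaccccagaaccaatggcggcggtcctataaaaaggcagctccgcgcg
Pgk1 (chrX:106186850-106187149, plus strand): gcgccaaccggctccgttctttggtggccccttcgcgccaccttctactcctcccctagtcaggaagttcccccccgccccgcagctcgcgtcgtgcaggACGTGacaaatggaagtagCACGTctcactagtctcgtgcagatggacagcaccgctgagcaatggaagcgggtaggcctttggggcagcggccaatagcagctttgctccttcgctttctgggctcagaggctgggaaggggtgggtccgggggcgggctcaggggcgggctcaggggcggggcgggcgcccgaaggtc
Tpi1 (chr6:124814109-124814408, minus strand): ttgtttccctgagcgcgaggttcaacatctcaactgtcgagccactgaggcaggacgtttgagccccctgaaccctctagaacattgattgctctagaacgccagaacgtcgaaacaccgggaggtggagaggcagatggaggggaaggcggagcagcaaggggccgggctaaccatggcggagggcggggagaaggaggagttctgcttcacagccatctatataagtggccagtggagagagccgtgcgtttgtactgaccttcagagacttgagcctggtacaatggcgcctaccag
The first 6 hold the motif and the Tpi1 window does not. Of 32851 windows in the RefSeq table, 19.6% hold ACGTG. Counted by gene, a window with the motif was found for 21.8% of 27025 genes in that table, 31.2% of the 3893 matched genes with 2 or more probe sets, 36.4% of 605 matched genes that were higher, and 31.5% of 257 that were lower. It was found for 18 of the 27 matched genes of the oxygen-sensing list (66.7%), and for 9 of the 10 matched genes of that list and glycolysis that changed (90%). The oxygen-sensing list was drawn up to hold HIF targets, so these 2 shares depend in part on how its members were chosen, not on these arrays. The median GC content was 52.8% in all genes of the table, 62% in those with 2 or more probe sets, 64.7% in the oxygen-sensing list and 63.3% in those 10 genes. The ETS core CCGGAAG, on either strand, was in a window of 22.1% of matched genes with 2 or more probe sets, 22.3% of those higher and 28.8% of those lower. A match is a description of the letters, not a binding site or a cause.

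Oxygen-sensing genes and glycolytic genes were higher in the DN-labelled arrays. Of 59 genes in the 2 lists, 28 had 2 or more probe sets: 12 rose and none fell. Another 7 were called with probe sets that disagreed, as were 460 of all 4785 genes with 2 or more. Of the list members with 1 probe set, 13 were called higher and 1 lower, against 17.9% and 11.3% of all such genes. In oxygen sensing, 6 of 17 rose (35.3%, against 15.7% of all genes) and none fell; in glycolysis, 6 of 11 rose (54.5%) and none fell. The median difference was 1.42 over the 33 measured genes of oxygen sensing and 0.93 over the 26 of glycolysis, against 0.18 over all genes. It stayed above 0 with uncentred values (0.62 and 0.14), quantile normalization (1.32 and 0.59) and cyclic loess (1.36 and 0.71), but the number of glycolytic genes that rose was 1, 3 and 5 in these settings. With uncentred values, 4 genes of oxygen sensing rose. On second probe sets the median was 0.48 over 17 genes of oxygen sensing, with 9 above 0 and 8 below. For glycolysis it was 0.72 over 11 genes, with 7 above 0 and 4 below, against 0.05 over all 4785 genes.

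**Figure D1:**
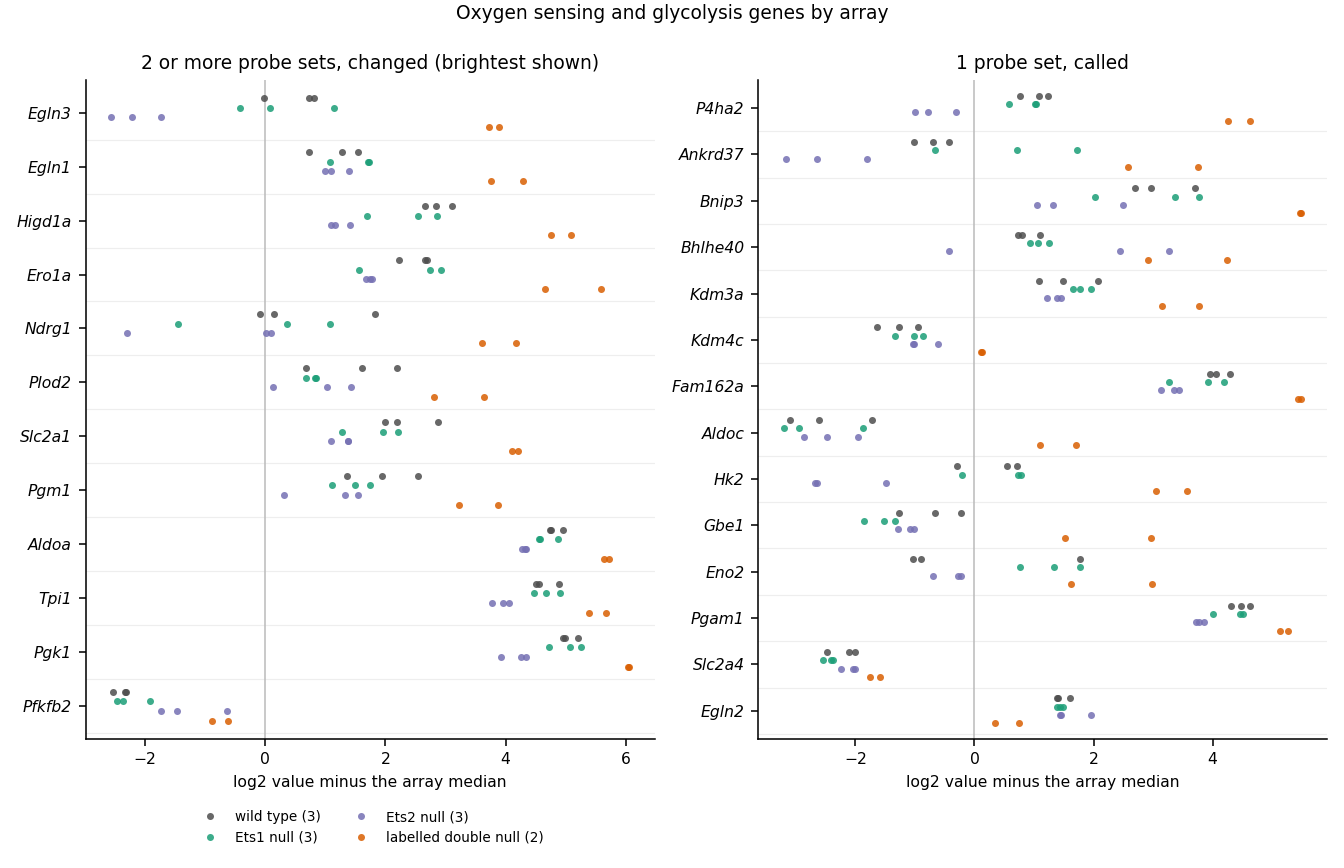
Centred log2 level of the brightest probe set (horizontal axis) of oxygen-sensing and glycolytic genes, 1 dot per array, coloured by group. The left panel holds the 12 genes that changed and the right panel the 14 genes with 1 probe set that were called; the DN-labelled arrays of Egln3 read 3.89 and 3.72 while wild type reaches 0.81, and Egln2 has the opposite direction. Pgam1 and Slc2a4 turn below 0 with uncentred values.

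Among the oxygen sensors themselves, Egln3, a hydroxylase that HIF itself induces, read -0.02, 0.81 and 0.72 in wild type and 3.89 and 3.72 in the DN-labelled arrays. Its second probe set read -0.13, 0.48 and 0.54 against 3.70 and 3.71. Both probe sets of Egln3 separated the groups without overlap, and Egln3 rose by 3.30 ± 0.45 (9.87-fold, adjusted p = 0.00139). Egln1, the main oxygen sensor of most cells, read 1.28, 1.54 and 0.73 against 3.76 and 4.29, and rose by 2.84 ± 0.30 (7.17-fold, adjusted p = 0.000498); the second probe set of Egln1 read 0.97, 1.05 and 0.71 against 2.69 and 3.34. Egln2, the hydroxylase that hypoxia does not induce, read 1.61, 1.38 and 1.41 against 0.74 and 0.35 on its single probe set. It was called lower (-0.92 ± 0.19, adjusted p = 0.00762; -0.73 with adjusted p = 0.0588 without DN-labelled array 2). The 3 hydroxylases thus did not share a direction. In Ets2 null, Egln3 read -2.56, -1.74 and -2.21, below every wild-type array (-2.68, adjusted p = 0.0399), and the DN-labelled arrays exceeded Ets2 null by 5.98 and Ets1 null by 3.54.

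The transcription factor itself gave no call. Hif1a, the oxygen-regulated subunit, read 3.18, 3.29 and 3.20 in wild type and 3.43 and 3.58 in the DN-labelled arrays on its brightest probe set (0.28 ± 0.19, adjusted p = 0.301). Its second probe set read 1.23, 1.29 and 1.13 against -1.91 and -2.13. The 2 probe sets of Hif1a therefore pointed in opposite directions, and the second had a difference of -3.24 (adjusted p = 1.03e-05 over 20523 probe sets, the number over which p-values of second probe sets are adjusted throughout). Epas1, the related subunit of endothelium, read 1.16 and -1.88 in the DN-labelled arrays, on both sides of 0 (-0.81, adjusted p = 0.494). Arnt, the partner of both subunits, had a difference of 0.20, and Hif1an, an asparagine hydroxylase that restrains HIF, one of 0.08; neither was called. Vhl, the ligase component that recognises hydroxylated HIF, was called 1.42 higher on its brightest probe set and had a difference of -1.90 on the second, so it does not count as changed.

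Of the targets outside glycolysis, Higd1a read 2.66, 2.84 and 3.11 in wild type and 5.08 and 4.75 in the DN-labelled arrays, all above wild type, and rose by 2.05 ± 0.31 (adjusted p = 0.0021), with 4.08 on its second probe set. Ero1a, which makes disulfide bonds, read 2.69, 2.66 and 2.23 against 4.65 and 5.58 and rose by 2.58 ± 0.40 (6.0-fold, adjusted p = 0.00235). Ndrg1, a stress-induced protein, read -0.08, 0.15 and 1.83 against 3.61 and 4.17. The groups did not overlap in Ndrg1, which rose by 3.25 ± 0.93 (adjusted p = 0.0286), but the call was lost without DN-labelled array 2 (2.97, adjusted p = 0.131), with uncentred values (2.46, adjusted p = 0.0587) and in 9 further settings, among them those without wild-type array 1 or 2 or DN-labelled array 1 (adjusted p = 0.0789, 0.0762 and 0.0766). Plod2, a lysyl hydroxylase of collagen, read 2.19, 1.61 and 0.67 against 2.81 and 3.64. It rose by 1.73 ± 0.48 (adjusted p = 0.025) and lost the call without that array as well (1.32, adjusted p = 0.158), and without wild-type array 2 or 3 (adjusted p = 0.0512 and 0.0504).

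Several targets had a single probe set, and their values come without the check by a second one. P4ha2, a prolyl hydroxylase of collagen, read 0.77, 1.24 and 1.08 in wild type and 4.26 and 4.62 in the DN-labelled arrays (3.41 ± 0.25, 10.6-fold, adjusted p = 0.000159). Ankrd37, a small ankyrin protein induced by HIF, read -1.01, -0.43 and -0.70 against 2.58 and 3.76 (3.88 ± 0.66, adjusted p = 0.00349). Bnip3, which drives mitophagy, read 2.69, 2.96 and 3.71 against 5.49 and 5.46 (2.36 ± 0.57, adjusted p = 0.0139). In P4ha2, Ankrd37 and Bnip3 alike, both DN-labelled arrays were above all wild-type arrays. The histone demethylases Kdm3a and Kdm4c, which need oxygen for catalysis, were called higher by 1.90 ± 0.28 and 1.40 ± 0.23. Fam162a, a mitochondrial HIF target, was called higher by 1.36 ± 0.25 (adjusted p = 0.00478), and Bhlhe40, a transcriptional repressor of the clock family, by 2.70 ± 0.89 (adjusted p = 0.0467). Bhlhe40 kept its call in 11 of 27 settings; leaving out any single array of the comparison ended it (adjusted p = 0.0664 to 0.238), and leaving out DN-labelled array 1 or 2 ended that of Bnip3 (2.34 and 2.37, adjusted p = 0.0588 and 0.0632).

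Other well-known targets were not called. Car9, a carbonic anhydrase, had a difference of 1.79 (adjusted p = 0.113) and Adm, a vasodilator peptide, 1.51 (adjusted p = 0.261). Ddit4, an inhibitor of mTOR, had 0.83, Pdk1, a kinase that inhibits pyruvate dehydrogenase, 0.51, and Hmox1, a heme oxygenase, 0.90. Vegfa, the growth factor of vessels, was called at 1.69 (adjusted p = 0.0282) on its brightest probe set but had -0.21 on the second. P4ha1, the sister of P4ha2, read 2.18, 2.59 and 2.42 against 3.88 and 4.48 on its brightest probe set and 1.52, 2.0 and 1.11 against -0.10 and -0.60 on the second. The brightest probe set of P4ha1 lay above wild type in both arrays and the second below it in both, so P4ha1 does not count as changed.

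Of glucose uptake and the first steps of glycolysis, the transporter Slc2a1 rose on agreeing probe sets, while the hexokinases and phosphofructokinases had 1 probe set, disagreed or were not called. Slc2a1, the main glucose transporter of endothelium, read 2.20, 1.99 and 2.88 in wild type and 4.10 and 4.20 in the DN-labelled arrays and rose by 1.80 ± 0.31 (3.47-fold, adjusted p = 0.0038), with 2.02 on its second probe set. Hk2, the inducible hexokinase, has 1 probe set, which read -0.29, 0.55 and 0.71 against 3.05 and 3.57 (2.99 ± 0.47, 7.92-fold, adjusted p = 0.00236). Hk1, the constitutive hexokinase, split by probe set: 2.75, 2.60 and 3.11 against 3.65 and 4.32 on the brightest, and 1.85, 1.64 and 1.32 against -1.92 and -1.61 on the second. Slc2a1 and Hk2 kept their calls in every setting run. Pgm1, which links glycogen to glycolysis, rose by 1.61 ± 0.44 (adjusted p = 0.0227; without wild-type array 1 or 2 or DN-labelled array 2 it had 1.60, 1.31 and 1.28 with adjusted p = 0.0536, 0.0649 and 0.141), and Gbe1, the branching enzyme of glycogen, was called higher by 2.96 ± 0.41 on 1 probe set. Slc2a3, another glucose transporter, was not called (1.44, adjusted p = 0.0745), nor was Pfkl, the liver type of phosphofructokinase (0.87, adjusted p = 0.0952). Pfkfb2, which makes the activator of phosphofructokinase, rose by 1.65 ± 0.31 from a level below the array median (-2.54, -2.32 and -2.33 against -0.88 and -0.62).

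Bright enzymes further down the pathway differed by less than 1. Pgk1 read 4.96, 4.98 and 5.21 in wild type and 6.05 and 6.03 in the DN-labelled arrays (0.99 ± 0.19, adjusted p = 0.00526), Tpi1 read 4.51, 4.56 and 4.89 against 5.38 and 5.67 (0.87 ± 0.19, adjusted p = 0.00898), and Aldoa, the main aldolase, read 4.76, 4.74 and 4.96 against 5.64 and 5.72 (0.86 ± 0.14, adjusted p = 0.00301). Pgk1, Tpi1 and Aldoa rose without overlap, but these sizes depend on the scaling: with uncentred values they were 0.20, 0.08 and 0.06, and with quantile normalization 0.50, 0.42 and 0.40, none of them called. Aldoc, an aldolase better known from brain, read -1.72, -2.61 and -3.09 against 1.10 and 1.71 on 1 probe set (3.88 ± 0.50, 14.7-fold, adjusted p = 0.00113), and Eno2, the neuronal enolase, was called at 2.35 ± 0.78 (adjusted p = 0.0486), a call that 9 of 27 settings kept. Eno2 overlapped between the groups, with 1.77 in wild-type array 3 and 1.62 in DN-labelled array 1, and without wild-type array 1 or 2 or DN-labelled array 1 or 2 its adjusted p was 0.13, 0.13, 0.0577 and 0.261. Pgam1, a mutase, was called higher by 0.73 ± 0.18 and Slc2a4, the insulin-dependent transporter, by 0.52 ± 0.17; both turned below 0 with uncentred values (-0.07 and -0.27). Without DN-labelled array 2 the adjusted p was 0.077 for Pgam1 (0.67) and 0.0641 for Tpi1 (0.73), and Slc2a4 lost its call without any 1 of 9 arrays (adjusted p up to 0.167). Ldha, which makes lactate (0.49, adjusted p = 0.0781; -0.31 uncentred), Pkm, the last enzyme (0.31), and Slc16a1, a lactate carrier (-0.22), were not called.

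The same 59 genes did not stand high in the single nulls. Their median difference from wild type was -0.14 for the Ets1 null arrays, -0.61 for the Ets2 null arrays and 1.36 for the DN-labelled arrays; all of these comparisons share the wild-type arrays. Against Ets2 null directly, 40 of the 59 were called higher in the DN-labelled arrays, where 20% of all genes were, and against Ets1 null 37 of the 59 were, where 21.6% of all genes were. By array, the median level of the oxygen-sensing list was 0.34, 0.81 and 0.80 for wild type, 0.07, 1.06 and 0.67 for Ets1 null, 0.13, 0.09 and 0.46 for Ets2 null, and 2.01 and 2.58 for the DN-labelled arrays. In 21 of its 33 genes (63.6%) both DN-labelled arrays lay above all wild-type arrays, which held for 33.5% of all genes. In glycolysis this held for 19 of 26 genes (73.1%).

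Over all genes, probe sets of 1 gene often pointed in opposite directions in this comparison. The 2 brightest probe sets had the same sign in 61.7% of 4785 genes (Wilson 95% interval 60.3% to 63.1%, counting error only), with r = 0.39 across genes, which are not independent replicates. The share was 79.5% for Ets1 null and 78.6% for Ets2 null against the same wild-type arrays. With uncentred values it was 76.6% in the present comparison. The difference between these shares was not tested. The share was 69.8% among called genes and 81.1% among the 106 genes with a difference over 2 in size. Among the called genes, 460 were set aside because their probe sets disagreed. Actb, an actin gene often used as a control, had -0.63 (adjusted p = 0.0781) on its brightest probe set and 1.96 (adjusted p = 0.00403) on the second: the first read 5.53, 5.50 and 4.76 in wild type and 4.81 and 4.44 in the DN-labelled arrays, the second 2.68, 2.43 and 3.92 against 4.94 and 4.99. Where probe sets lie along a transcript is not known here, and their part in the result was not tested.

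**Figure D2:**
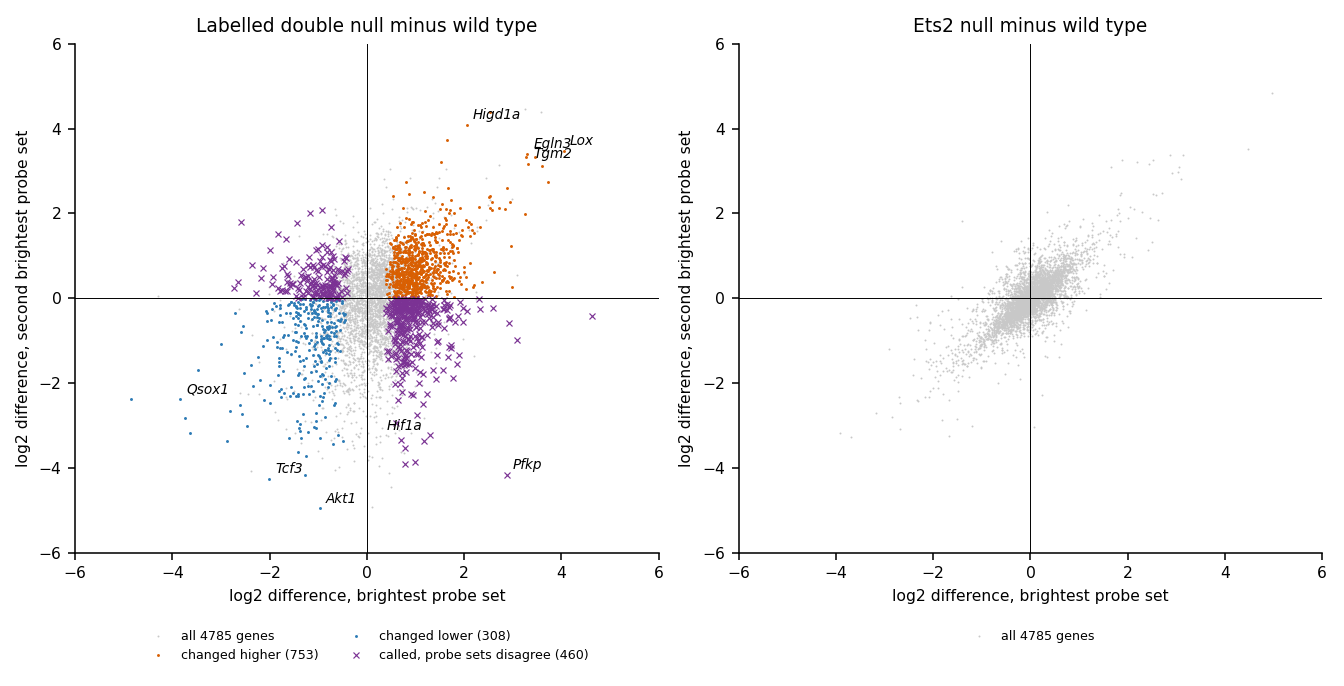
Difference in centred log2 level of the second brightest probe set (vertical axis) against that of the brightest (horizontal axis), 1 point per gene with 2 or more probe sets; left, DN-labelled arrays minus wild type, with 753 genes that were higher, 308 that were lower and 460 that were called but disagreed; right, Ets2 null minus wild type. The left cloud spreads into the quadrants of opposite sign (61.7% of genes share a sign) more than the right one (78.6%); uncentred, the left share is 76.6%.

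In 775 genes both probe sets were called, 603 in the same direction and 172 in opposite directions (22.2%). The share was 23.1% in the DN-labelled arrays against Ets1 null (174 of 753 genes) and 16.4% against Ets2 null (131 of 798), while Ets2 null against wild type had 12 such genes and none in opposite directions. Pfkp, the platelet type of phosphofructokinase, was the largest of these: its brightest probe set read 1.46, 1.27 and 0.92 in wild type and 3.75 and 4.44 in the DN-labelled arrays (2.88 ± 0.27, adjusted p = 0.000311). The second probe set of Pfkp read 1.02, 0.79 and -0.17 against -3.74 and -3.49 (-4.16, adjusted p = 6.67e-05). Neither probe set of Pfkp overlapped between the groups, and the 2 gave opposite directions. Zfp207, a zinc finger protein of mitotic spindles, did the reverse, with 3.0, 2.84 and 2.91 against 0.53 and 0.15 on the brightest (-2.58 ± 0.2) and -1.12, -1.04 and -0.39 against 0.72 and 1.15 on the second (1.79). Wac, an adaptor of histone ubiquitination, had 1.44 and -1.33 on its 2 probe sets, Ccnl2, a cyclin of splicing, 1.30 and -3.22, Gys1, the glycogen synthase of muscle, 1.37 and -1.69, and Xiap, an inhibitor of caspases, 0.73 and -1.89. These genes were chosen after their values were seen.

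Among the 753 genes that were higher the median difference was 1.0, from 0.39 to 4.06, and 374 were at least 1; the second probe set had a median of 0.70. Among the 308 that were lower the median was -1.09, from -4.85 to -0.44, and 179 were at least 1 in size; the second probe set had a median of -0.90. Groups did not overlap on either probe set in 540 of the higher and 229 of the lower genes; over all 4785 genes this held for 789 higher (16.5%) and 404 lower (8.44%), called or not. Without the rule on probe sets, 3341 of 11015 genes were called (30.3%), 2176 higher (19.8%) and 1165 lower (10.6%), and 4655 had an unadjusted p under 0.05. Among genes with 2 or more probe sets 1521 were called (31.8%), 1058 higher (22.1%) and 463 lower (9.68%), and both probe sets were called in the same direction in 414 higher (8.65%) and 189 lower genes (3.95%). The split moved with the scaling: 71% of changed genes were higher with centred values, 57.9% with quantile normalization (520 higher and 378 lower), 59% with cyclic loess (582 and 404), and 2.81% with uncentred values (51 and 1767). The median of all genes was 0.18, 0.09, 0.05 and -0.61 in these settings. Of the 1061 genes, 209 had the opposite sign with uncentred values, 8 of them called.

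The largest rises that both probe sets carried are given next; 267 genes met the rule that both probe sets were called, did not overlap and lay above the array median in the brighter group. Egln3, Egln1 and Ero1a are among the first 15 and are described above. Lox, which cross-links collagen and elastin, read -1.11, 3.03 and 2.29 in wild type and 5.86 and 5.08 in the DN-labelled arrays (4.06 ± 1.32, 16.7-fold, adjusted p = 0.0445). Wild-type array 1 was far below the other wild-type arrays in Lox, and the call was lost in 16 of 29 settings, among them those without wild-type array 1 (2.81, adjusted p = 0.0961), wild-type array 3 (4.51, adjusted p = 0.0519), or DN-labelled array 1 or 2 (3.67, adjusted p = 0.166, and 4.45, adjusted p = 0.113). Tgm2, a transglutaminase that cross-links matrix proteins, read 0.31, 0.68 and 0.92 against 4.41 and 3.48 (3.31 ± 0.49, 9.9-fold, adjusted p = 0.00196), with 3.17 on its second probe set. In Ets1 null, Tgm2 read 1.88, 2.21 and 2.37, between the other 2 groups.

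Mef2c, a transcription factor of muscle and vessels, read -2.85, -0.38 and -3.01 in wild type and 2.12 and 1.16 in the DN-labelled arrays (3.72 ± 0.68, 13.2-fold, adjusted p = 0.00444). Mtss1, which bends membranes at the cell edge, read -2.48, -0.51 and -1.72 against 1.75 and 1.66 (3.27 ± 0.62, adjusted p = 0.00501). In Mef2c and Mtss1 wild-type array 2 was the highest of its group and still below both DN-labelled arrays. Vldlr, the receptor of very low density lipoprotein and a HIF target, read 0.21, -3.75 and -1.5 against 1.70 and 2.14 (3.6 ± 0.94, adjusted p = 0.0199), and Vnn1, a pantetheinase, read -1.31, 0.01 and -2.80 against 1.71 and 2.48 (3.46 ± 1.10, adjusted p = 0.0417). The wild-type spread was wide in Vldlr and Vnn1; without DN-labelled array 1 or 2 the adjusted p was 0.0633 and 0.097 for Vldlr and 0.094 and 0.174 for Vnn1. Vnn1 also lost its call without wild-type array 1 (adjusted p = 0.083) and wild-type array 3 (adjusted p = 0.099).

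Alcam, an adhesion molecule of the immunoglobulin family, read -1.36, -0.83 and 0.90 in wild type and 1.97 and 2.93 in the DN-labelled arrays (2.88 ± 0.76, adjusted p = 0.0209). Prkab2, a regulatory subunit of AMP-activated kinase, read -0.39, 0.05 and -0.82 against 2.10 and 2.15 (2.51 ± 0.37, adjusted p = 0.00197). Alcam lost its call without wild-type array 1 (2.41, adjusted p = 0.0606), wild-type array 2 (2.68, adjusted p = 0.0593) or DN-labelled array 2 (2.40, adjusted p = 0.126), while Prkab2 kept it in every setting run. Tfpi, the inhibitor that stops the tissue factor pathway of clotting, read -1.13, 1.31 and -1.34 against 2.09 and 2.22 (2.54 ± 0.66, adjusted p = 0.0194). Tfpi read 2.04, 1.76 and 2.37 in Ets2 null, a mean 0.10 below that of the DN-labelled arrays (adjusted p = 0.925), and its second probe set was 1.22 below (adjusted p = 0.268). Its call was lost without wild-type array 1 (2.16, adjusted p = 0.0574) and without DN-labelled array 1 or 2 (2.60, adjusted p = 0.0694, and 2.47, adjusted p = 0.0869).

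Nupr1, a small chromatin protein of stress, read 0.73, 2.71 and 1.81 in wild type and 3.68 and 4.43 in the DN-labelled arrays (2.31 ± 0.69, adjusted p = 0.0326). Pmepa1, which restrains TGF-beta signalling, read -1.06, 1.87 and 0.53 against 3.47 and 2.51 (2.54 ± 0.72, adjusted p = 0.0267). Niban1, a stress protein, read 0.96, -0.68 and -0.37 against 2.51 and 2.58 (2.58 ± 0.59, adjusted p = 0.0112). The groups did not overlap in Nupr1, Pmepa1 or Niban1. Nupr1 lost its call without wild-type array 1 (adjusted p = 0.0859), wild-type array 3 (adjusted p = 0.0583), or DN-labelled array 1 or 2 (adjusted p = 0.0654 and 0.165). Pmepa1 lost it without either of the latter (adjusted p = 0.142 and 0.0546), and Niban1 without the second of them (adjusted p = 0.0578).

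**Figure D3:**
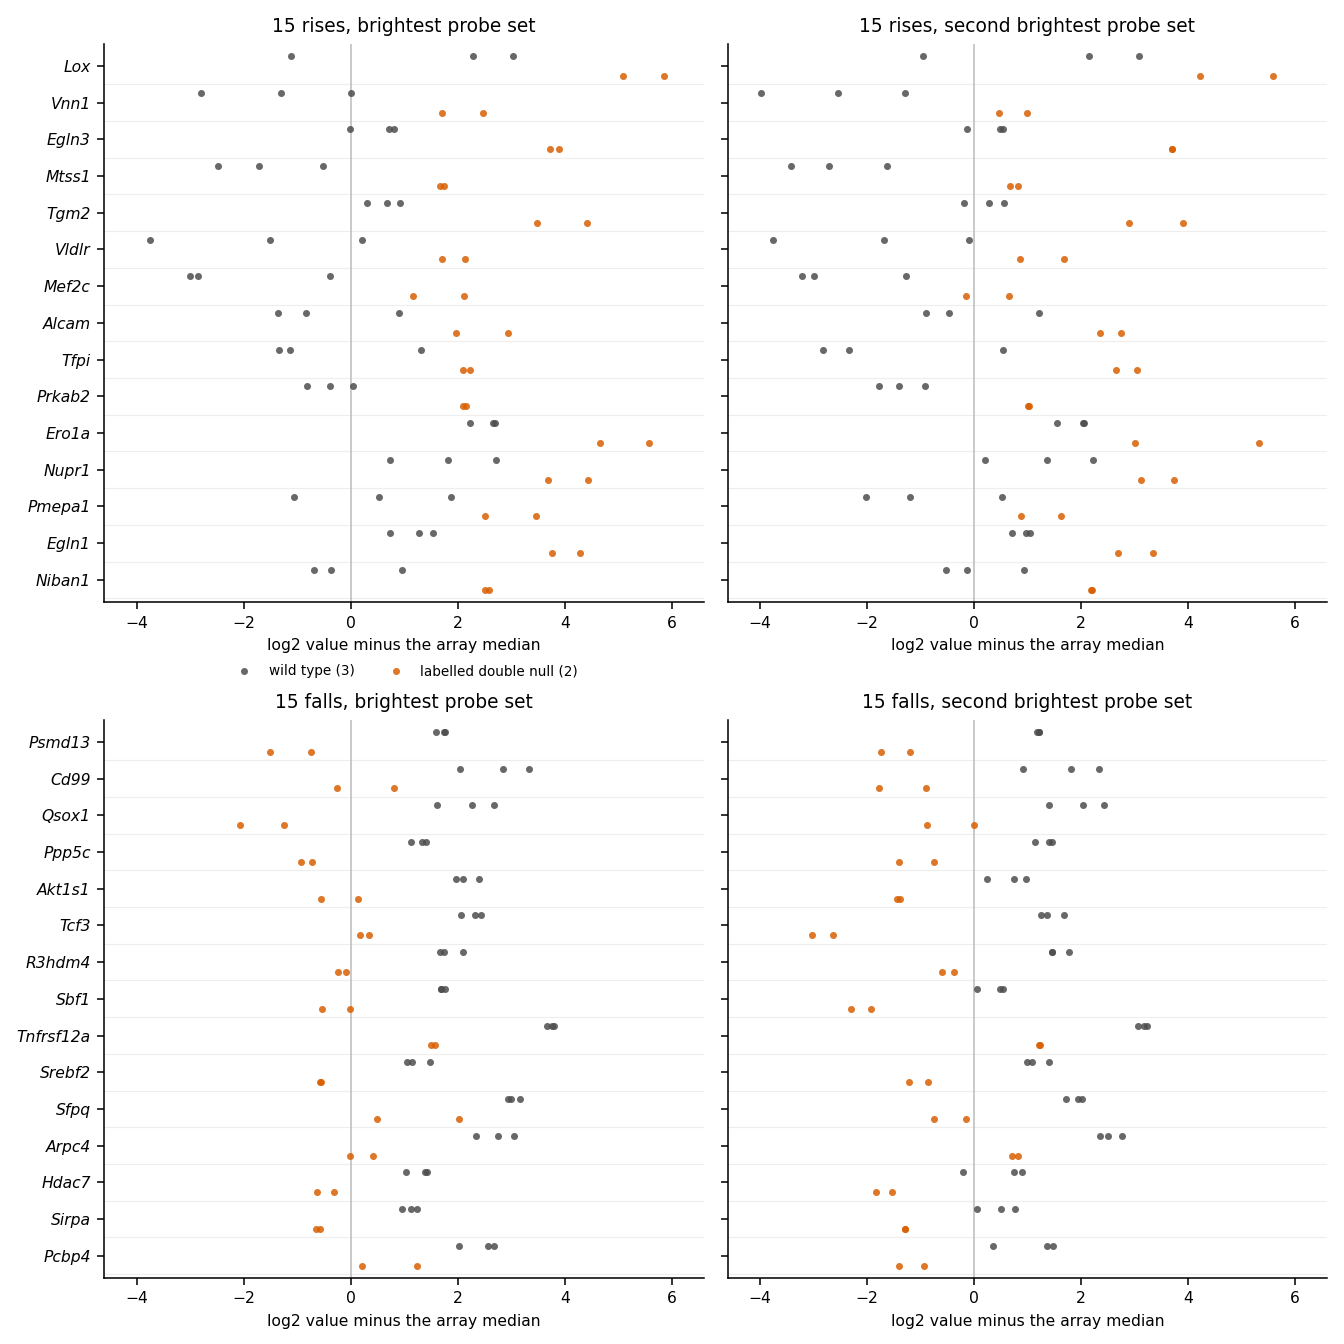
Centred log2 level (horizontal axis) of the brightest and second probe sets in every wild-type array and both DN-labelled arrays, for the 15 rises and 15 falls with the largest smaller difference of the 2 probe sets; each mark is 1 array. In every gene shown the groups do not overlap on either probe set; Egln3, Psmd13 and Tcf3 have narrow groups and Lox, Vldlr and Mef2c wide wild-type groups.

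The largest falls came from 113 genes that met the same rule. Psmd13, a lid subunit of the proteasome, read 1.77, 1.74 and 1.60 in wild type and -0.74 and -1.5 in the DN-labelled arrays (-2.82 ± 0.29, 0.141-fold, adjusted p = 0.000458), with -2.67 on the second probe set. Qsox1, an enzyme that forms disulfide bonds in secreted proteins, read 2.26, 2.68 and 1.62 against -2.06 and -1.25 (-3.84 ± 0.48, 0.0699-fold, adjusted p = 0.00104). Tcf3, the E protein that partners Id proteins, read 2.33, 2.06 and 2.43 against 0.18 and 0.34 (-2.01 ± 0.15, adjusted p = 0.000159). Psmd13, Qsox1 and Tcf3 lay below every wild-type array in both DN-labelled arrays. On its second probe set Tcf3 read 1.69, 1.36 and 1.26 against -3.02 and -2.63, a larger difference (-4.26) in the same direction.

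Of the 15 falls ranked by the smaller difference of their 2 probe sets, Akt1s1, a substrate of Akt that inhibits mTOR, read 2.40, 2.09 and 1.96 in wild type and 0.14 and -0.55 in the DN-labelled arrays (-2.35 ± 0.21, adjusted p = 0.000293). Ppp5c, a phosphatase bound to Hsp90, read 1.41, 1.34 and 1.12 against -0.93 and -0.72 (-2.12 ± 0.17, adjusted p = 0.000234). Arpc4, a subunit of the actin-branching Arp2/3 complex, read 3.05, 2.76 and 2.35 against 0.41 and -0.02 (-2.52 ± 0.24, adjusted p = 0.000328). Akt1s1, Ppp5c and Arpc4 kept their calls in every setting run. Tnfrsf12a, the receptor of the cytokine TWEAK, read 3.66, 3.80 and 3.76 against 1.5 and 1.57 (-2.20 ± 0.61, adjusted p = 0.0241). In Ets2 null, array 3 of Tnfrsf12a read 1.68; that array enters the shared estimate of spread. Without wild-type array 1 or 2 or DN-labelled array 1 or 2 the adjusted p was 0.0524, 0.0587, 0.0906 and 0.0902. Sbf1, a regulator of myotubularin phosphatases, read 1.69, 1.76 and 1.69 against -0.53 and -0.02.

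Cd99, an adhesion molecule of endothelial junctions through which leukocytes pass, read 2.85, 3.34 and 2.05 in wild type and -0.26 and 0.81 in the DN-labelled arrays (-2.47 ± 0.39, adjusted p = 0.00248). Sirpa, a receptor for Cd47, read 1.12, 0.96 and 1.23 against -0.58 and -0.65 (-1.72 ± 0.28, adjusted p = 0.00305). In Ets1 null, Sirpa read -0.06, -1.0 and -1.03, and the DN-labelled arrays differed from it by 0.08 (adjusted p = 0.852). Hdac7, a class IIa histone deacetylase of endothelium, read 1.39, 1.42 and 1.03 against -0.32 and -0.63 (-1.76 ± 0.21, adjusted p = 0.000879). Srebf2, the master factor of cholesterol synthesis, read 1.14, 1.49 and 1.06 against -0.56 and -0.57 (-1.80 ± 0.16, adjusted p = 0.000272). Srebf2 was also lower in Ets2 null, at 0.28, 0.29 and 0.23 (-0.96, adjusted p = 0.0386). Of the RNA-binding proteins, Pcbp4 read 2.68, 2.57 and 2.03 against 1.24 and 0.22, and Sfpq, a splicing factor, read 2.99, 2.94 and 3.16 against 2.02 and 0.50. Sfpq fell by 1.77 ± 0.52 (adjusted p = 0.0315), with -1.01 and an adjusted p of 0.227 without DN-labelled array 2 and 0.0661, 0.0639 and 0.065 without each wild-type array. R3hdm4 completes the 15 falls, with 1.74, 1.67 and 2.09 against -0.24 and -0.09.

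Most changed genes also differed from the single nulls. Of the 753 that were higher, 606 (80.5%) were called higher than Ets1 null and 533 (70.8%) higher than Ets2 null, where 21.6% and 20% of all genes were. Of the 308 that were lower, 240 (77.9%) were called lower than Ets1 null and 256 (83.1%) lower than Ets2 null, where 9.94% and 12.1% of all genes were; in either direction 31.5% and 32.1% of all genes were called. These comparisons share the DN-labelled arrays, on which the genes were chosen. The same 753 genes had a median difference from wild type of 0.07 (Ets1 null) and 0.13 (Ets2 null), and the 308 had -0.07 and -0.03. Over all genes limma called 1 gene (0.00908%) between Ets1 null and wild type and 37 (0.336%) between Ets2 null and wild type. The exception in direction was Rnf130, a membrane-bound ubiquitin ligase, which was called 1.85 higher than in Ets1 null (adjusted p = 0.00244).

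Rnf130 was also the single gene called in Ets1 null against wild type. Wild-type arrays read 1.90, 1.11 and 1.44 there, Ets1 null arrays -2.31, -2.30 and -1.81, and the DN-labelled arrays -0.15 and -0.43. The latter thus lay between the groups (-1.78 ± 0.29 against wild type, adjusted p = 0.00283), and the second probe set of Rnf130 had -0.16.

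Cholesterol synthesis, a second pathway with a transcription factor among the falls, was described through 25 genes, 13 with 2 or more probe sets. Srebf2 fell (7.69%, against 6.44% of all genes) and Insig2 rose (7.69%, against 15.7%). Of the 12 genes with 1 probe set, 5 were called lower (41.7%, against 11.3% of all such genes) and none higher. Insig2, which holds the SREBP complex in the endoplasmic reticulum, read 1.06, 1.40 and 0.65 in wild type and 2.29 and 3.33 in the DN-labelled arrays (1.78, adjusted p = 0.00448). Scap, the escort of SREBP, read 2.49, 2.05 and 1.63 against 0.39 and 0.36 (-1.68 ± 0.25, adjusted p = 0.00189), and Insig1, a target of the pathway, was called at -1.82 (adjusted p = 0.0308). Among the enzymes, Fdps read 1.88, 2.72 and 1.92 against 0.46 and -1.43 (-2.66, adjusted p = 0.00723), Pmvk was called at -0.95 (adjusted p = 0.0293) and Dhcr7 at -1.65 (adjusted p = 0.0121). Hmgcs1 (-0.11) and Sqle (0.31) were not called. Without DN-labelled array 2 the adjusted p was 0.121 for Insig1, 0.17 for Pmvk (-0.73) and 0.089 for Dhcr7 (-1.31); Insig1 also lost its call without DN-labelled array 1 (0.0939) or wild-type array 2 or 3 (0.0749 and 0.0733), and Pmvk without wild-type array 1 or 2 (0.0562 and 0.0732). The list's median difference from wild type was -0.72 in Ets2 null, with 22 of 25 genes below 0, and -0.14 in Ets1 null. In the DN-labelled arrays it was -0.82, with 18 of 25 genes below 0. The latter median was -1.62 uncentred, -0.84 with quantile normalization and -0.88 with cyclic loess. Without DN-labelled array 2 it was -0.36, and without array 1 it was -1.09 with 5 genes lower.

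Genes of protein synthesis, respiration and protein breakdown followed. Cytosolic ribosomal proteins were higher with centred values: 11 of 19 rose (57.9%) and none fell, 14 of 24 with 1 probe set were called higher (58.3%, against 17.9% of such genes), and the median was 0.45. The direction depended on the scaling, with a median of -0.35 and 10 of 19 lower with uncentred values, 0.01 and 2 lower with quantile normalization, and 0.11 with 1 higher and 1 lower with cyclic loess. Rps7, a protein of the small subunit, read 5.23, 5.17 and 5.14 in wild type and 6.05 and 6.09 in the DN-labelled arrays (0.89 ± 0.11, adjusted p = 0.000967). Of the changed members, Rpl41 had 0.73 (-0.06 uncentred) and Rps29 had 0.63 (-0.16 uncentred). By array, the list's median level lay between 5.18 and 5.30 in wild type and at 5.64 and 5.72 in the DN-labelled arrays.

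In the respiratory chain and ATP synthase, 13 of 45 genes rose (28.9%) and 4 fell (8.89%), with a median of 0.26 over 73 genes that was -0.53 uncentred, -0.01 with quantile normalization and 0.06 with cyclic loess. Ndufb11, of complex I, read 3.16, 3.23 and 3.27 in wild type and 4.49 and 4.47 in the DN-labelled arrays (1.26 ± 0.16, adjusted p = 0.00101), while Cox5b of complex IV, the supercomplex factor Cox7a2l and Uqcrb of complex III rose by 1.05, 1.15 and 1.01. Ndufs8, Ndufv1, Cox8a and Atp5g2 fell. Atp5g2, which encodes subunit c of ATP synthase, read 3.62, 3.85 and 3.81 against 1.98 and 2.29 (-1.62 ± 0.16, adjusted p = 0.000328), with -0.17 on its second probe set. In the proteasome, 2 of 18 rose (11.1%, against 15.7% of all genes), 3 fell (16.7%, against 6.44%), and 9 of 21 genes with 1 probe set were called lower (42.9%, against 11.3%); the median was -0.31, and -1.11, -0.51 and -0.44 in the other scalings. Besides Psmd13, Psma7 fell by 1.20 and Psmc4 by 1.07, Psma6 and Psmc6 rose (turning to -0.17 and -0.36 uncentred), and Psmd3 read 2.57, 2.44 and 2.16 against 0.54 and 0.44 (-1.90, adjusted p = 0.000191). Psmc6 lost its call without wild-type array 2 or DN-labelled array 1 or 2 (adjusted p = 0.065, 0.0643 and 0.0904). Without DN-labelled array 2 the second probe set of Psmc4 took the opposite sign, as did that of Atp5g2 without wild-type array 3 or DN-labelled array 1, so they would not count as changed.

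**Figure D4:**
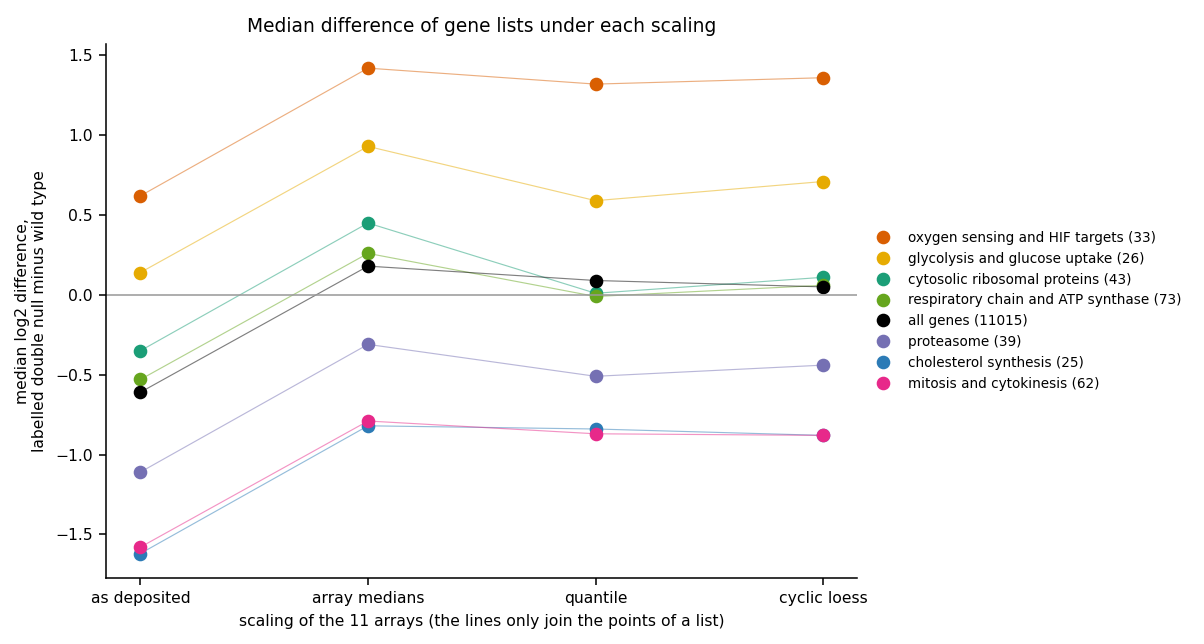
Median log2 difference (vertical axis, DN-labelled arrays minus wild type) of 7 gene lists and of all genes under 4 scalings (horizontal axis); lines only join the points of a list. Oxygen sensing stays above 0 in all 4 (0.62 to 1.42) and cholesterol synthesis below 0 (-1.62 to -0.82), while cytosolic ribosomal proteins run from -0.35 to 0.45.

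The mitosis list differed widely between the 2 DN-labelled arrays. None of 62 genes of mitosis and cytokinesis was called by limma (3 had an unadjusted p under 0.05, all lower), although 61 had a difference below 0 and the median was -0.79. In 30 of them (48.4%) both DN-labelled arrays lay below all wild-type arrays, which held for 19.2% of all genes. The absence of calls depended on the fit. With only the 5 arrays compared, 1 gene fell and 4 with 1 probe set were called lower (166 and 350 over all genes). In that fit 17 were lower with an unadjusted p under 0.05, as were 1348 of all 11015 genes. The list's median level was 1.69, 1.54 and 1.92 in wild type, 1.44 and -0.43 in the DN-labelled arrays, and -2.54 in Ets2 null array 3. DN-labelled array 2 and Ets2 null array 3 were thus the low arrays; without the former the median difference was -0.13, and without DN-labelled array 1 it was -1.65. Plk1, a mitotic kinase, read 1.89, 1.73 and 1.67 against -0.20 and -2.11 (-2.92, adjusted p = 0.0877). The DNA replication list had a median level of 1.05, 0.93 and 1.55 in wild type and 0.80 and 0.76 in the DN-labelled arrays. Of its 30 genes with 2 or more probe sets, Rfc3, a clamp loader, fell by 1.0 (3.33%, against 6.44% of all genes). Rfc3 was not called without any 1 of the 5 arrays. Of its 23 genes with 1 probe set, 4 were called lower (17.4%, against 11.3% of all such genes): Rfc5, Pola2, Cdk2 and E2f2. The part of these cell cycle values in the other results was not tested.

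Of 14 genes of the Bcl2 family and apoptosis with 2 or more probe sets, Bcl2l11 rose (7.14%, against 15.7% of all genes) and Bad and Htra2 fell (14.3%, against 6.44%). Bad, which promotes death when survival signals end, read 1.78, 1.76 and 1.89 in wild type and 0.81 and 0.64 in the DN-labelled arrays (-1.09 ± 0.15, adjusted p = 0.00131). Htra2, a mitochondrial protease, read 0.86, 0.92 and 1.57 against -0.49 and -0.95 (-1.84 ± 0.26, adjusted p = 0.00165). Both pro-apoptotic genes lay below every wild-type array. Bcl2l11, which encodes the killer protein Bim, had 0.91 (adjusted p = 0.048) and kept its call in 9 of 29 settings; DN-labelled array 2 or any wild-type array left out ended it (adjusted p = 0.0517 to 0.342). On 1 probe set, Bcl2l1, the survival factor Bcl-xL, read 1.21, 0.36 and -0.52 against -3.05 and -2.72 (-3.23 ± 0.44, adjusted p = 0.00141), the killer Bak1 was called at -1.38, and the survival genes Bcl2l2 and Birc2 at 0.98 and 1.09 (Bcl2l2 at 0.71 with adjusted p = 0.0589 without DN-labelled array 2). Bik, a killer protein, was called higher by 0.97 from levels between -3.25 and -2.74. Mcl1, another survival factor, was not called (-0.88, adjusted p = 0.0515).

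Within the ETS family, 2 of 9 genes rose (Ets1, above, and Etv3), Etv5 fell (22.2% and 11.1%, against 15.7% and 6.44% of all genes), and 3 of 6 with 1 probe set were called lower (50%, against 11.3% of all such genes). Etv5, an activator of the PEA3 group, read 1.36, 1.12 and 2.06 in wild type and -0.40 and 0.88 in the DN-labelled arrays (-1.28, adjusted p = 0.0349; -0.64 with adjusted p = 0.241 without DN-labelled array 1, and adjusted p = 0.061 and 0.0801 without wild-type array 1 or 3), with -4.18 on its second probe set. Erf, a repressor controlled by ERK, read 0.37, 0.32 and 0.19 against -1.37 and -1.59 (-1.77 ± 0.18, adjusted p = 0.000401), and Etv4, of the same group as Etv5, read 1.07, 0.91 and 0.89 against -0.92 and -0.51. Etv4 was also at 0.16, -0.12 and -1.82 in Ets2 null, and the DN-labelled arrays differed from that group by -0.12 (adjusted p = 0.872). Elk1, which binds DNA with the serum response factor, was called at -0.64. Etv3, a repressor, was called at 0.81 (adjusted p = 0.0193), with 0.15 on its second probe set (adjusted p = 0.554) and 0.02 uncentred. Etv4 was not called without any 1 of the 5 arrays (adjusted p up to 0.146), nor Etv3 without wild-type array 2 or either DN-labelled array (adjusted p up to 0.0984). In the Notch pathway, Notch1, the receptor of arterial fate, read 0.67, 0.34 and 0.45 against -0.87 and -0.68 (-1.26 ± 0.21, adjusted p = 0.00305), and Notch1 in Ets1 null read -0.32, -0.70 and -0.52 (difference of the DN-labelled arrays from Ets1 null -0.26, adjusted p = 0.368). Maml1, its coactivator, rose by 0.97.

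In TGF-beta and BMP signalling, 5 of 27 rose (18.5%, against 15.7% of all genes) and 1 fell (3.7%, against 6.44%). Bmpr2, the type II receptor of BMPs, read 2.01, 1.95 and 1.10 in wild type and 3.41 and 3.43 in the DN-labelled arrays (1.73 ± 0.28, adjusted p = 0.00302), Smad7, an inhibitor, rose by 1.14, and Smad5, a BMP transducer, read 0.85, 0.30 and 0.89 against -1.05 and -1.21 (-1.81 ± 0.2, adjusted p = 0.000609). Inhba, an activin subunit, and Skil, a repressor of Smads, were called higher on 1 probe set by 3.20 ± 0.66 and 2.35 ± 0.36, and Id1, a BMP target, lower at -1.40. Without DN-labelled array 2, Smad7 had 1.07 (adjusted p = 0.0687) and Inhba 2.40 (adjusted p = 0.0588). In PI3 kinase signalling, 3 of 14 rose (21.4%) and 2 fell (14.3%). Foxo1, a factor that Akt keeps out of the nucleus, read -1.35, -0.37 and -0.77 against 1.45 and 0.82 (1.96 ± 0.39, adjusted p = 0.0064). Foxo3 rose by 1.5 ± 0.35, with 0.25 on its second probe set (adjusted p = 0.517). Akt1, the kinase, read 3.30, 2.84 and 2.69 against 2.10 and 1.85 (-0.97 ± 0.23, adjusted p = 0.0125), with -4.96 on its second probe set. Foxo3 lost its call without DN-labelled array 1 (1.38, adjusted p = 0.0654) and Akt1 without array 2 (-0.84, adjusted p = 0.0789). Neither Foxo1 nor Akt1 overlapped between the groups.

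Of 13 genes of AP-1 and the immediate-early response, Fosl2 and Spred2 rose (15.4%, against 15.7% of all genes) and Jun fell (7.69%, against 6.44%). These shares are close to those of all genes. Spred2 had 0.15 on its second probe set (adjusted p = 0.393). Fosl2, a Fos-related factor, read 1.32, 1.64 and 1.0 in wild type and 3.76 and 2.42 in the DN-labelled arrays (1.77 ± 0.44, adjusted p = 0.0167), and Jun read 2.71, 2.82 and 3.15 against 1.34 and 1.96 (-1.25 ± 0.3, adjusted p = 0.0133). Both lost the call without DN-labelled array 1, Fosl2 at 1.10 (adjusted p = 0.116) and Jun at -0.93 (adjusted p = 0.0918). Of 17 inflammation genes with 2 or more probe sets, Ptgs2 rose (5.88%, against 15.7% of all genes) and Nfkb2 fell (5.88%, against 6.44%). Ptgs2, the inducible cyclooxygenase, read 0.94, 1.38 and -1.59 against 3.28 and 3.12 (2.96 ± 0.83, adjusted p = 0.0262). Its second probe set gave 1.23 (adjusted p = 0.219). Nfkb2, a subunit of NF-kappaB, fell by 1.96 ± 0.39, with -0.25 on its second probe set (adjusted p = 0.319). Ptgs2 in Ets2 null read -3.19, -2.97 and -4.83. Without DN-labelled array 1 or 2 the adjusted p of Ptgs2 was 0.0992 and 0.0925; Spred2, an inhibitor of Ras signalling, had 1.07 and lost its call without wild-type array 1 or 2 or DN-labelled array 2 (adjusted p = 0.0562, 0.0844 and 0.214).

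Of 42 chromatin regulators, 9 rose (21.4%, against 15.7% of all genes) and 3 fell (7.14%, against 6.44%); the median difference of the list was 0.05, against 0.18 over all genes. The H3K4 demethylases Kdm5b and Kdm5c rose by 1.64 ± 0.27 and 1.57 ± 0.19, Tet2, which oxidises methylcytosine, by 1.66 ± 0.28, and Dnmt3a, which methylates DNA, read -2.44, -1.61 and -2.23 in wild type and -0.01 and 0.25 in the DN-labelled arrays (2.21 ± 0.43, adjusted p = 0.00586). Dnmt3a had 0.32 on its second probe set. Ehmt2, a histone methyltransferase, fell by 1.38. In the stress list, Ddit3 and Trib3, both induced by ATF4, rose by 2.13 ± 0.30 and 1.44 ± 0.40 with Vldlr, while Sesn2 fell by 1.0; the list as a whole had 10% of 30 genes higher, below the 15.7% of all genes. Trib3 lost its call without wild-type array 1 or 2 or DN-labelled array 1 (adjusted p = 0.0691, 0.0671 and 0.148), and Sesn2 without any 1 of 8 arrays (adjusted p up to 0.154).

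In the collagen and adhesion lists the shares of higher genes were close to that of all genes. In the collagen list, Col4a5, a chain of basement membrane, read 1.95, 1.25 and 1.69 in wild type and 3.23 and 3.88 in the DN-labelled arrays (1.93 ± 0.47, adjusted p = 0.0145). It rose with Lox and Plod2 (15%, against 15.7% of all genes). Among 29 integrin and focal adhesion genes, Fn1, Fermt2, Tns1 and Tns3 rose (13.8%, against 15.7% of all genes) and Src and Zyx fell (6.9%, against 6.44%). Zyx, a protein of stress fibres, read 3.54, 3.48 and 3.11 against 1.61 and 1.56 (-1.79 ± 0.31, adjusted p = 0.00371), and Vasp, which extends actin filaments, read 2.83, 2.35 and 1.56 against -0.18 and -0.96 on 1 probe set (-2.82 ± 0.44, adjusted p = 0.00243). Of 15 matrix proteases and inhibitors with 2 or more probe sets, Timp3 rose (6.67%, against 15.7% of all genes) and Adamts10 fell (6.67%, against 6.44%). Adamts10 had -1.37, with -0.22 on its second probe set. Timp3 rose by 0.90 and read 4.34, 4.32 and 4.46 in Ets2 null, beside 4.69 and 4.25 in the DN-labelled arrays (difference 0.09, adjusted p = 0.692). Sema3e, a repellent of vessels, fell by 2.38 ± 0.52 and differed from Ets1 null by 0.98 and from Ets2 null by -0.32, neither called; on its second probe set it was 2.17 above Ets1 null (adjusted p = 0.0174). Without DN-labelled array 2 the adjusted p was 0.097 for Col4a5 (1.6), 0.0963 for Fermt2 (0.97) and 0.0693 for Sema3e (-1.94); Tns1 and Src lost their calls without wild-type array 1 (0.112 and 0.0627), DN-labelled array 1 (0.131 and 0.0664) or 2 (0.131 and 0.093), and Tns1 without wild-type array 3 (0.0742).

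**Figure D5:**
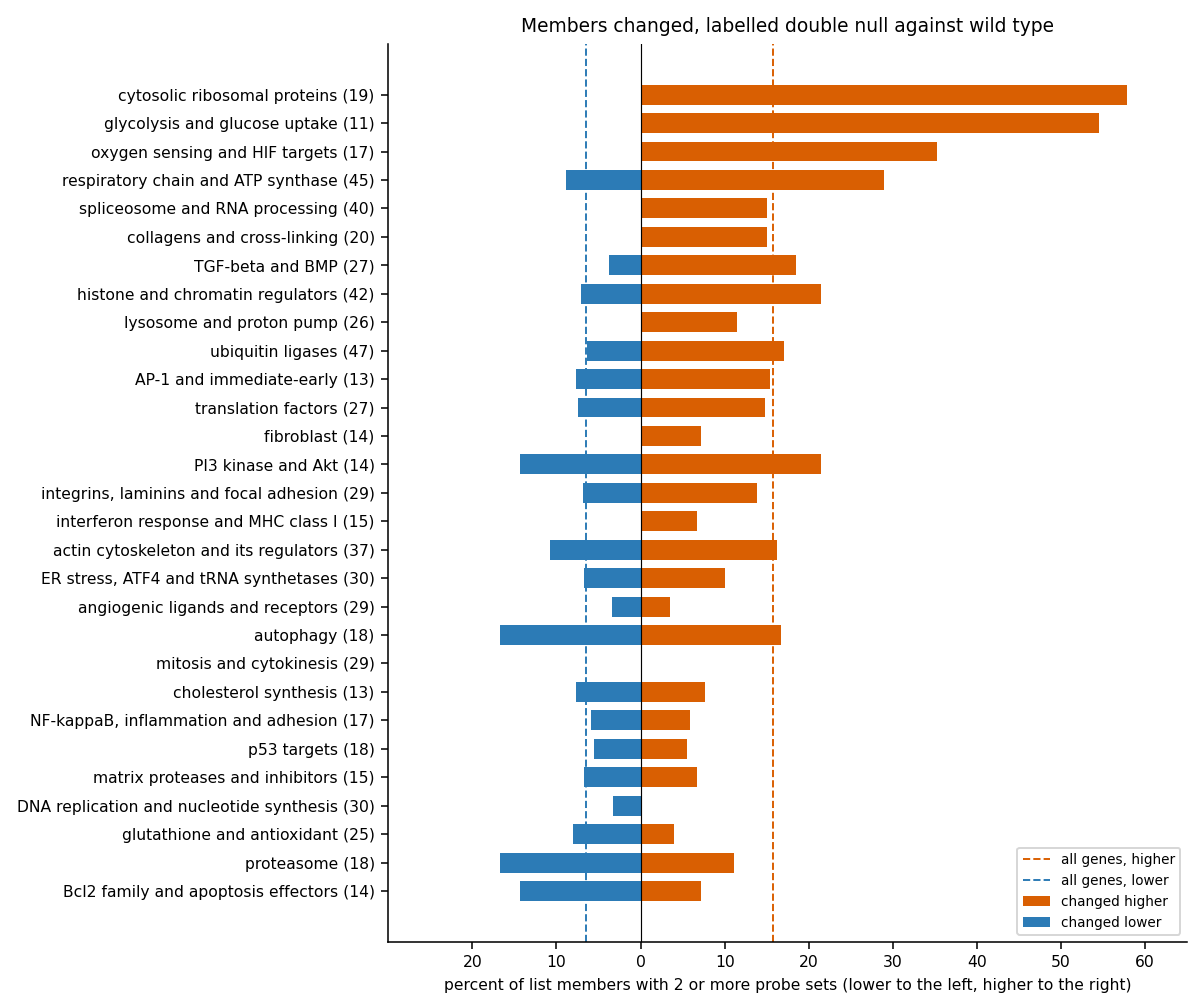
Percent of genes with 2 or more probe sets that changed, for lists with 10 or more such genes, bars to the right for higher and to the left for lower in the DN-labelled arrays; dashed lines mark the shares of all genes, 15.7% and 6.44%. Cytosolic ribosomal proteins (57.9%) and glycolysis (54.5%) have the longest bars for higher with centred values; with uncentred values none of the ribosomal genes and 1 of the glycolytic genes rose.

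Cell type markers were measured in part. Of 47 endothelial genes, 18 were on the table, with 6 on 2 or more probe sets. None was called by limma, where 30.3% of all genes were. By limma's unadjusted p under 0.05, 5 differed, 2 higher and 3 lower, and the list's median was -0.32. Eng, a coreceptor of endothelium, read 1.5, 0.69 and -0.90 in wild type and -0.86 and -0.90 in the DN-labelled arrays, and Kdr, the main VEGF receptor, lay below the array median everywhere, at -1.45, -1.73 and -1.78 against -2.02 and -1.73. Thbd, a thrombin receptor of vessel walls, read 2.14, -0.33 and 1.25 against -0.10 and -4.31. Eng and Kdr overlapped between the groups, as did Thbd; Pecam1 and Cdh5 were not analysed here. Of 25 fibroblast markers, 14 had 2 or more probe sets, and of these Lox rose (7.14%, against 15.7% of all genes). The list's median level was 2.29 to 2.79 in wild type, 3.81 and 3.52 in the DN-labelled arrays and 3.21 in Ets2 null array 3. Of 16 smooth muscle, 9 epithelial and 8 leukocyte markers, only 5, 1 and 1 had 2 or more probe sets and could count as changed. limma called none of the smooth muscle and epithelial markers (3 and 1 had an unadjusted p under 0.05). Of the leukocyte markers, Cd3e was called higher by 0.75 on 1 probe set, and Csf1r by 0.74 with -0.10 on its second. The part of the fibroblast markers in the other results was not tested.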

How the data were processed

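RNA was measured on Affymetrix mouse arrays with 1 value per probe set. The authors deposited log2 values made with RMA, per the submitters' processing notes; its version is not given in the sources used here. There were 12 columns of 20523 probe sets. The third Ets1/2 null column equalled the mean of the other columns of its group in 20521 probe sets (99.9903%, within 1e-06) and was left out, so n = 2 there. Of the probe sets, 18824 carried 1 gene symbol, 549 several and 1150 none; only the first were used.

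The median over all probe sets was subtracted from each array. limma 3.58.1 (R 4.3.3; lmFit and eBayes, two-sided) fitted a mean per group over 11 arrays, with 7 residual degrees of freedom. p-values were Benjamini-Hochberg adjusted over 11015 genes, or over all probe sets for second probe sets. Errors are limma's SE. Folds are 2 to the power of the log2 difference. pandas 2.3.3, numpy 2.4.6 and matplotlib 3.10.9 (Python 3.11.15) made tables and plots. The number of arrays limits precision. The fit was tested on simulated data with 50 genes at each size of change. It called 2% of genes with a log2 difference of 0.5, 36% at 1, 68% at 2 and 90% at 3. A gene that was not called may therefore still differ.

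Named genes are the 15 rises and 15 falls with the largest smaller difference of 2 probe sets that were both called, did not overlap and lay above the array median in the brighter group; Ets1 and Ets2; up to 5 changed members of each of 35 lists; and further list members by role. Others were chosen after their values were seen. The members and lists were chosen with earlier results of these data known. Alternatives changed scaling, arrays, probe sets, spread and threshold.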

Additional observations from a re-analysis of the deposited data

How the results depend on the processing

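The 753 genes higher and 308 lower became 51 and 1767 with uncentred values, 316 and 166 with only the 5 arrays compared, 414 and 189 with both probe sets called, 2176 and 1165 with no agreement required, 370 and 172 at an adjusted p under 0.01, 374 and 179 with a log2 difference of at least 1, and 487 and 190 with only probe sets whose names end in a plain _at or _a_at. The second brightest probe set gave 509 lower. Leaving out 1 array gave 474 to 788 higher and 214 to 355 lower; the lowest counts were without array 2 labelled double null. Of the changed genes, 823 still counted with quantile normalization, 890 with cyclic loess and 359 uncentred. Agreement of probe sets was 76.6% uncentred, 59.7% with plain names, and 59.8% to 66.2% without 1 array. Deviations of 2 arrays from their mean mirror each other. Their correlation with wild type (r = -0.056 and -0.149 for the 2 shared replicate numbers) therefore cannot show whether the samples are paired. With replicate numbers as a block 627 were higher and 266 lower, 846 of the 1061 among them. A term for male arrays (read from Xist and Eif2s3y) gave 609 and 243, as did leaving out wild-type array 1. Only wild type held both sexes, so the term does no more than leave out that array. Counts of settings include both. Plain names, centring on brightest probe sets, and leaving out wild-type and Ets2 null array 3 together were chosen after seeing the data. The 5 arrays of the comparison limit its precision.

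These genes turned direction, and the cause was not tested. Uncentred: Igf1r -0.05, B2m -0.22, Smad4 -0.03, Rpl22 -0.21, Rpl35 -0.19, Rpl41 -0.06, Rps28 -0.33, Rps29 -0.16, Uqcr10 -0.13, Psma6 -0.17, Psmc6 -0.36, Hnrnpc -0.26, Eif1a -0.02, Eif1ax -0.08, Eif2s3x -0.12, Trim33 -0.14, Itch -0.33, Gsk3b -0.21, Pgam1 -0.07, Slc2a4 -0.27, Hif1a -0.52, Ldha -0.31 and Xiap -0.06. Rps28 had -0.03 with quantile normalization, and Epas1, at -0.81 in the comparison, ran from -2.33 to 0.71 without 1 array, the latter without array 2 labelled double null. With the mean of all probe sets Eif2s3x had -0.37, Rnf114 -0.17, Atg7 0.02, Hif1a -0.74, Vhl -0.24, P4ha1 -0.06, Hk1 -1.10, Gys1 -0.16 and Xiap -0.58. On the second probe set Hif1a had -3.24, Vhl -1.90, P4ha1 -1.89, Vegfa -0.21, Pfkp -4.16, Hk1 -3.37, Gys1 -1.69, Xiap -1.89, Zfp207 1.79, Wac -1.33 and Ccnl2 -3.22.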
